A study of Homo sapiens with 54 samples.

Results

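Entry into mitosis, the building of the spindle, the pulling apart of the chromosomes and the final cut between daughter cells were followed through 50 genes, taken from a list of symbols. The rule for membership uses no measured value, but the list was drawn up with earlier results of these data known. They are 50 of the 27978 genes in the count table, and all 50 had enough counts to be tested in every fit. They fall into 9 roles, from the cyclins and kinases that start mitosis to the proteins of the cleavage furrow. The RNA was that of the human line MDA-MB-231, a triple-negative, mesenchymal-like breast cancer line in long use, and was sequenced as strand-specific, paired-end poly(A) libraries. There were 54 libraries in 18 groups with 3 replicates each, which the series' design text calls biological replicates.

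In batch 1, cells were sampled after 24 and after 48 h. They were left untreated (UT), or were given Compound Kushen Injection (CKI) at 2 mg/ml, a mixture prepared from the plants Sophora flavescens and Heterosmilax chinensis, or a mixture of its fractions at the dose equivalent to 2 mg/ml CKI. N_2 was CKI without oxymatrine (Omt) and oxysophocarpine (Ospc), and N_3 was CKI without these and macrozamin (Mac). OO held Omt and Ospc only, and MOO held Mac, Omt and Ospc only. In batch 2, all cells were sampled after 48 h, and the groups were UT, CKI, and CKI lacking macrozamin (N_Mac), N-methylcytisine (N_Nme), oxymatrine (N_Omt) or trifolirhizin (N_Tri). All groups shared the cell line and a medium with fetal bovine serum, and no mixture was given at another dose. The labels name no vehicle for the untreated cells. The mitotic inhibitor named in the paper's methods for its migration and viability assays is not named in the labels' protocols for the sequenced cells.

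A cell enters mitosis when cyclin B, bound to the kinase CDK1, is freed of inhibitory phosphate by CDC25 phosphatases, with Polo-like and Aurora kinases amplifying the switch. Kinesin motors and spindle proteins then array the microtubules, the NDC80 complex of the kinetochore grips them, and the spindle checkpoint holds back the anaphase-promoting complex and its activator CDC20 until every chromosome is attached. The anillin and centralspindlin proteins build the cleavage furrow, through which the cell divides. These genes are transcribed late in the cell cycle, by a B-MYB, MuvB and FOXM1 programme that reads a cell cycle homology region (CHR) element close to the start site, often beside CCAAT boxes bound by NF-Y. Their RNA is therefore low in cells outside G2 and mitosis. In bulk RNA such as this, fewer cells in mitosis and less of the RNA in each cell cannot be told apart.

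Because the members are known for these promoter elements, windows of 300 bases, from 250 before to 50 after the transcription start, were read from a RefSeq table of GRCh38.p14. The table held 43 of the 50 members in 53 windows, since some genes have several starts. FOXM1, AURKA, BIRC5, TTK, UBE2C, TPX2 and RACGAP1 were not among them. The CHR letters TTTGAA or TTCGAA, on either strand, were in 36 of the 53 windows (67.9%), against 16.4% of all 35116 windows and 2 of 37 windows (5.41%) of DNA replication genes. The CCAAT letters, on either strand, were in 39 windows (73.6%), against 34.6% of all windows and 62.2% of the replication windows. The E2F letters TTTGGCGC or TTTCCCGC, on either strand, were in 3 windows (5.66%), against 2.27% of all and 40.5% of the replication windows. Both a CHR and a CCAAT match were in 29 of the members' windows (54.7%) and in 6.38% of all. These are matches of letters and no measurement of binding. The promoters of 6 members stand below as the 250 bases before the start, 5′ to 3′ on the gene's own strand, with CHR and CCAAT letters of either strand in capitals, where TTCAAA and ATTGG are the reverse forms. They were chosen because the first 4 show the CHR and CCAAT pair and ANLN shows CHR letters without CCAAT. CCNB1 shows CCAAT boxes without the letters TTTGAA or TTCGAA. Other spellings of the element were not read, so CCNB1 is not shown to lack it.
PLK1 (chr16:23678639-23678888, + strand): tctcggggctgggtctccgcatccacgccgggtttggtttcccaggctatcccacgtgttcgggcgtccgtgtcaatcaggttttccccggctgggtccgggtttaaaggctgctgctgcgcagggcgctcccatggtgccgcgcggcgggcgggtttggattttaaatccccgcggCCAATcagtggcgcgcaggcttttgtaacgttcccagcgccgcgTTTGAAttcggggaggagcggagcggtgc
CDC20 (chr1:43358731-43358980, + strand): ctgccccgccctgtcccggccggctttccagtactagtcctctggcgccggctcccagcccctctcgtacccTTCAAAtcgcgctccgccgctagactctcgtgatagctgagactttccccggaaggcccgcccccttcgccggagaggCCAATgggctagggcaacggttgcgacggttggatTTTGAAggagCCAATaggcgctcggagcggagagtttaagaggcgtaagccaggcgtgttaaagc
CCNB2 (chr15:59104896-59105145, + strand): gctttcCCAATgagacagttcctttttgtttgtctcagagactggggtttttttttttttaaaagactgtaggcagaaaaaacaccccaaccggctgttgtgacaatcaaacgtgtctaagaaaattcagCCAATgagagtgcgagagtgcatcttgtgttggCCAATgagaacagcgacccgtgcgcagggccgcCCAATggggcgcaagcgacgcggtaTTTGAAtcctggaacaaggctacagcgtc
TOP2A (chr17:40417897-40418146, - strand): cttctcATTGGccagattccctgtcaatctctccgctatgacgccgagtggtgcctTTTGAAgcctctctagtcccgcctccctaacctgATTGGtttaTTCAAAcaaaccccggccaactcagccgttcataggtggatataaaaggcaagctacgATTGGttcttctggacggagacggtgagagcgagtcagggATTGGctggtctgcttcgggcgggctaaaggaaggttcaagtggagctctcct
ANLN (chr7:36389612-36389861, + strand): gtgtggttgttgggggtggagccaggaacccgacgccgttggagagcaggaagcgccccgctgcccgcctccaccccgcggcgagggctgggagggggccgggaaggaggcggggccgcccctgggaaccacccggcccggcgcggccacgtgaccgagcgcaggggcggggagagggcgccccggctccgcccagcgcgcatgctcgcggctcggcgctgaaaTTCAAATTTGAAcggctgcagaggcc
CCNB1 (chr5:69166900-69167149, + strand): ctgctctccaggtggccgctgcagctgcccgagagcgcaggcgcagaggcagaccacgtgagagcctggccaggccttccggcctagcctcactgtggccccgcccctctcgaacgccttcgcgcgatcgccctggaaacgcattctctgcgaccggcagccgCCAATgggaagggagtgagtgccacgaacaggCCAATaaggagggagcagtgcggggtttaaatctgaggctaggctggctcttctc
In PLK1 and in CCNB2 the CHR begins 29 bases before the start. CDC20 has a CHR 65 bases before it, between CCAAT boxes at 100 and 55, and ANLN has CHR letters at 26 and 20.

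The libraries held between 17673537 and 26138924 counts each. Levels are given as CPM, each gene's counts relative to the library total after TMM scaling over all 54 libraries. The line's markers VIM and CD44 were abundant, with group means from 518 to 1504 and from 334 to 658 CPM, while ESR1 and PGR were at most 0.192 and 0.0571 CPM. Of the 6 markers of other cell types, PTPRC, ALB and CDX2 had group means of at most 0.392, 0.101 and 0.0178 CPM, GFAP ranged from 2.49 to 9.48 and PECAM1 from 0.373 to 3.94. HBB, the beta globin gene, lay between 31.0 and 94.6 CPM in 14 of the 18 libraries of 24 h, was 0 in the remaining 4, and was at most 0.0851 CPM in the 36 libraries of 48 h. The 4 at 0 were CKI replicate 1, N_3 replicate 2, OO replicate 2 and MOO replicate 3. The first 3 of these are also the libraries whose column in the count table carries no replicate number. All UT and N_2 libraries of 24 h were among the 14. The part of this split in the results at 24 h was not tested. The counts at 24 h are given below also without the 3 libraries with no replicate number. The most abundant members of each role whose call against untreated cells then changed are given too. MOO replicate 3 was kept in that alternative, which therefore does not remove the split.

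In untreated cells the members spanned a wide range of levels. Per kilobase of exon, UBE2C, the ubiquitin-conjugating enzyme of the anaphase-promoting complex, stood highest at 133.6 CPM per kb in batch 1 at 48 h. CDC20 followed with 128.6, CCNB1 with 104.5, TPX2 with 89.5 and PTTG1, or securin, with 86.3 CPM per kb. The lowest were HMMR at 2.42, KIF15 at 6.29 and KIF14 at 6.46 CPM per kb. Over the 3 untreated libraries of each time and batch, all 50 members together took between 0.564 and 0.697% of all counts. That share fell to between 0.0588 and 0.0603% in the N_Omt libraries.

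CKI and every mixture lowered mitotic RNA, and no member passed the test as higher than in untreated cells in any of the 15 comparisons. A member was called when edgeR's quasi-likelihood test gave an adjusted p under 0.05, with Benjamini-Hochberg adjustment over all genes tested. Treated groups of one time and batch share their 3 untreated libraries. Log2 fold changes are given with the standard error of the fit. With CKI, 43 members fell at 24 h, where 30.0% of all genes were called in either direction and 14.8% were called lower. At 48 h, 49 fell in batch 1 (54.0% of all genes called, 27.0% lower) and 49 in batch 2 (66.4% called, 34.2% lower). Their median log2 fold changes were -1.17, -1.05 and -1.25. The members not called were TOP2A, MKI67, KIF18B, SPC24, KIF14, BUB1 and FOXM1 at 24 h, and SPC24 in both batches at 48 h. Without CKI replicate 1, N_3 replicate 2 and OO replicate 2, 49 members fell with CKI at 24 h, with a median of -1.25. For counts with libraries left out or under another setting, here and below, the share of all genes called is not given. Whether the members gained or lost more calls than other genes was not tested.

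The medians with N_2, with N_3 and with the mixtures lacking a single compound were lower than with CKI of the same time and batch, and the tests of each against CKI are given further on. With N_2, 48 members fell at 24 h (62.1% of all genes called, 30.9% lower) and 50 at 48 h (76.6% called, 38.3% lower), with medians of -1.79 and -2.49, and 49 fell at 24 h without the 3 libraries. With N_3, all 50 fell at 24 h (45.0% called, 21.8% lower) and at 48 h (71.1% called, 35.3% lower), with medians of -2.20 and -2.97. N_3 replicate 2 stood apart, since its median log2 ratio to untreated cells was -1.45, against -2.56 and -2.58 in replicates 1 and 3. Without it and the other 2 unnumbered libraries, the median for N_3 at 24 h was -2.65, again with 50 members lower. In batch 2 all 50 members fell with N_Mac (72.4% of all genes called, 35.4% lower), N_Nme (71.3% called, 35.4% lower), N_Omt (78.2% called, 39.9% lower) and N_Tri (72.2% called, 37.4% lower). Their medians were -2.30, -1.90, -4.04 and -2.30. The deepest fall of all groups was with N_Omt, where every member was at least 2-fold lower and the lowest, MKI67, stood at -5.78 ± 0.08. N_Omt was given in batch 2 only and N_2 and N_3 in batch 1 only, so mixture and batch cannot be told apart in that ranking. The share of all genes called is high with N_2, N_3 and the mixtures of batch 2, so that the counts alone say little about the members. The median log2 fold change over all genes tested was between -0.01 and 0.03 in all 15 comparisons. TMM scaling holds that median near 0, so it does not show that RNA in general stayed level. Under scaling by library totals alone that median was -0.31 for N_2 at 24 h.

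OO and MOO, the mixtures of 2 or 3 compounds alone, gave the fewest calls at 24 h. With OO, 15 members fell at 24 h (16.7% of all genes called, 7.72% lower) and 50 at 48 h (57.8% called, 28.7% lower). With MOO, 9 fell at 24 h (10.5% called, 4.84% lower) and 45 at 48 h (51.2% called, 25.5% lower). The medians were -0.50 and -1.04 with OO and -0.57 and -0.73 with MOO, so that OO at 48 h lay next to CKI of the same time and batch (-1.05). OO was not tested against CKI. The 9 members called with MOO at 24 h were KIF20A, PLK1, CDC20, CCNB1, AURKA, RACGAP1, CDC25B, KIF23 and UBE2C, all of which also fell with OO. The members not called with MOO at 48 h were PTTG1, CENPA, KIF14, CKAP2 and IQGAP3. The counts at 24 h changed with the libraries in the fit. OO gave 31 members and MOO 36 without the 3 unnumbered libraries, while OO gave 7 without its replicate 3, 8 without UT replicate 1 and 9 without UT replicate 2 or 3. MOO gave 5 without UT replicate 1 or 2 or without any of its own replicates. The medians were -0.55 with OO and -0.57 with MOO without the 3 libraries. None of the 3 is a MOO or UT library, and the MOO median was -0.57 with them too. All groups of one time and batch share the estimate of the spread. Of the most abundant members of their roles, KIF2C (-0.70, adjusted p = 0.00083), TPX2 (-0.67, 0.0094) and ANLN (-0.47, 0.0422) then also passed the test with OO. With MOO, KIF2C (-0.59, adjusted p = 0.0011), TPX2 (-0.60, 0.00863), ANLN (-0.51, 0.0166), TOP2A (-0.66, 0.0177) and CENPF (-0.60, 0.0412) did so. At 24 h the biological coefficient of variation was 0.175, against 0.0763 in batch 1 and 0.0480 in batch 2 at 48 h.

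**Figure D1:**
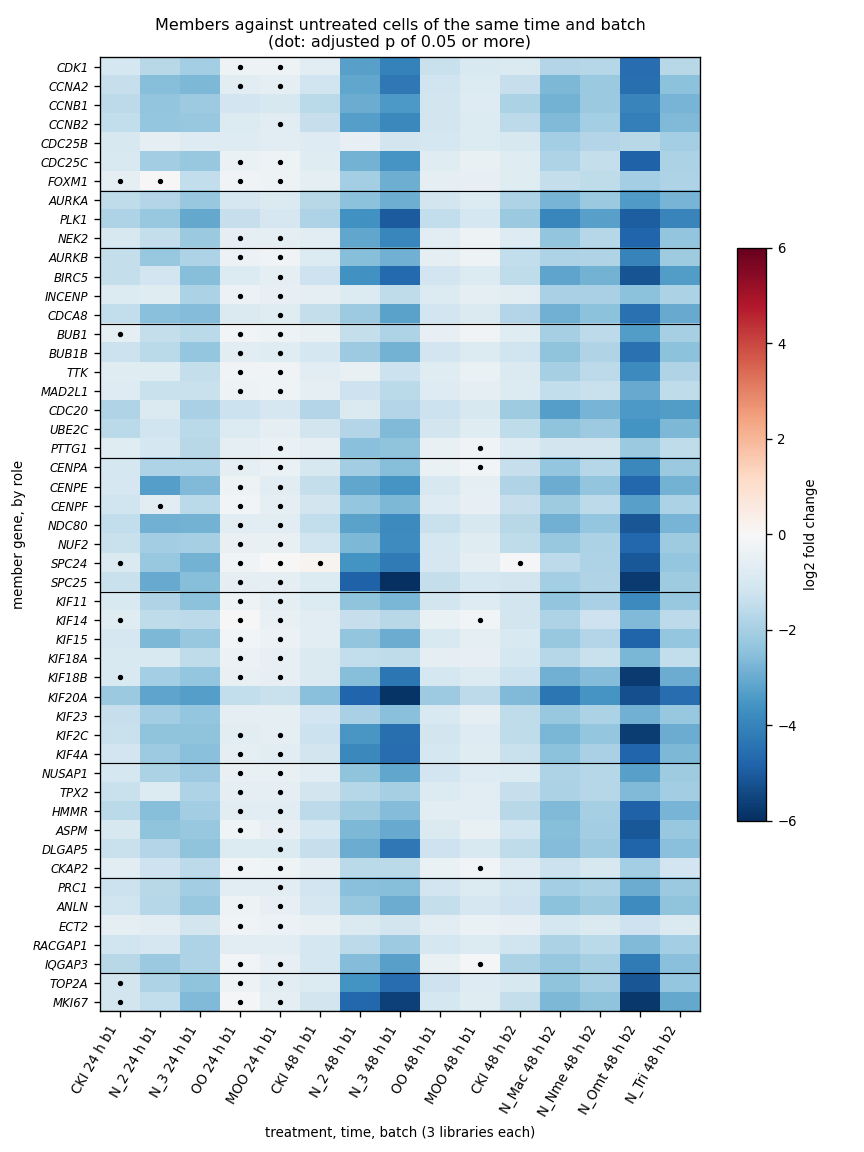
Log2 fold changes of the 50 members (rows, grouped by 9 roles) against untreated cells of the same time and batch in the 15 treated groups (columns); a dot marks a member that did not pass the test. The deepest colours are those of N_3 at 48 h and N_Omt, and no member rises in a cell without a dot.

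**Figure D2:**
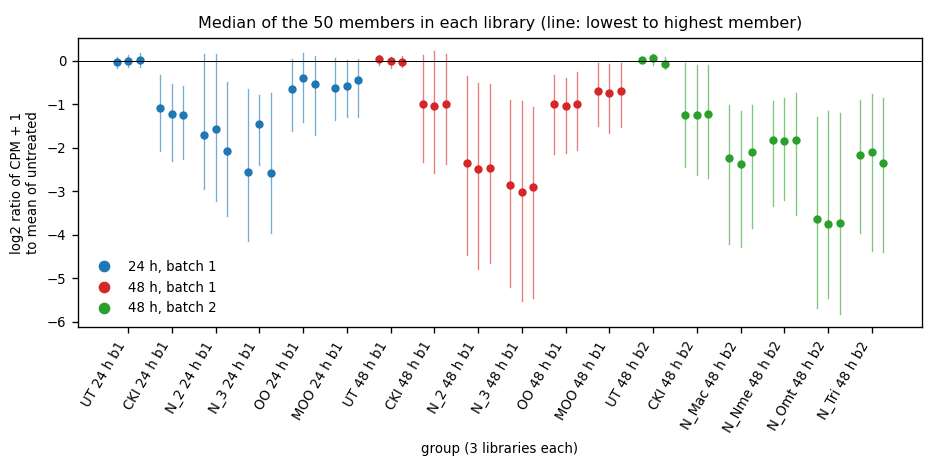
Median log2 ratio of the 50 members to the mean of untreated cells in each of the 54 libraries (points), with a line from the lowest to the highest member; the ratio is of CPM plus 1. Replicates lie close together except at 24 h, where N_3 replicate 2 sits at -1.45 and its other replicates at -2.56 and -2.58.

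Across the 15 comparisons, 9 members fell in every one (CCNB1, CDC25B, AURKA, PLK1, CDC20, UBE2C, KIF20A, KIF23 and RACGAP1), and 39 fell in 13 or more. In single comparisons, between 4.84% (MOO at 24 h) and 39.9% (N_Omt) of all genes were called lower. The share of all genes that fell as often was not counted, and the comparisons of one time and batch share their untreated libraries. SPC24 fell in the fewest, 10. KIF20A and PLK1 were at least 2-fold lower in all 15, and ECT2 in 4. By the median over the 15 comparisons, KIF20A (-3.15), CENPE (-2.37), KIF2C and NDC80 (both -2.31) and PLK1 (-2.29) stood lowest. ECT2 (-0.70), FOXM1 (-0.71), TTK (-0.74), INCENP (-0.81), CDC25B (-0.95) and CKAP2 (-0.98) stood highest.

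The cyclins and kinases of mitotic entry fell together. CCNB1, or cyclin B1, was at 332, 317 and 301 CPM in the untreated libraries of 24 h and at 111, 101 and 109 with CKI. At 48 h in batch 2 it was at 222, 240.1 and 209 CPM untreated, 59.6, 58.0 and 59.7 with CKI and 13.3, 15.1 and 14.6 with N_Omt. No treated library reached an untreated one, and the log2 fold changes were -1.57 ± 0.21, -1.92 ± 0.06 and -3.97 ± 0.07. CDK1, its catalytic partner, was less affected by CKI. It stood at 129.7, 125 and 121 CPM untreated and 84.6, 74.6 and 76.7 with CKI at 48 h in batch 1, a change of -0.67 ± 0.08. It dropped to 8.20, 7.26 and 7.15 CPM with N_3 (-4.05 ± 0.10) and to 5.02, 5.66 and 6.44 with N_Omt (-4.57 ± 0.10).

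CDC25B, the phosphatase that starts CDK1 activation at the centrosome, was the most abundant of this role by summed counts, and its response kept a narrow range. In batch 2 it stood at 175, 176 and 165 CPM untreated, 87.6, 88.7 and 85.0 with CKI, 42.4, 40.6 and 40.3 with N_Mac and 57.5, 52.6 and 54.5 with N_Omt. Its log2 fold change was -0.98 ± 0.05 with CKI, -2.05 ± 0.05 with N_Mac and -1.65 ± 0.05 with N_Omt and -2.05 ± 0.06 with N_Tri. The N_Mac libraries lay below the N_Omt libraries, the opposite of the order for most members. CDC25C, the related phosphatase acting at mitotic entry, changed by -0.74 ± 0.11 with CKI and -4.87 ± 0.18 with N_Omt. FOXM1, the transcription factor of the mitotic programme, was at 131, 139.6 and 151 CPM untreated and 157, 157 and 94.9 with N_2 at 24 h, where 2 replicates stood above and 1 below all untreated libraries. Its log2 fold change there was -0.00 ± 0.24 (adjusted p = 0.996), and -2.05 ± 0.11 with N_2 at 48 h (adjusted p = 9.51e-14).

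Among the entry kinases, PLK1 gave the largest response. PLK1, or Polo-like kinase 1, was at 148, 156 and 162 CPM in untreated cells at 48 h in batch 1. It was at 73.2, 77.8 and 73.8 with MOO, 45.3, 41.4 and 41.9 with CKI, 12.9, 12.4 and 11.8 with N_2 and 5.06, 5.12 and 4.44 with N_3. The 5 groups did not overlap, and the log2 fold changes ran from -1.06 ± 0.06 with MOO to -5.00 ± 0.08 with N_3. AURKA, the Aurora kinase of the centrosome, was at 184, 185 and 180.1 CPM in untreated cells of batch 2, 51.2, 48.9 and 51.5 with CKI and 16.5, 18.3 and 17.1 with N_Omt. It changed by -1.85 ± 0.05 and -3.40 ± 0.06. NEK2, a kinase of centrosome separation, changed by -0.77 ± 0.08 with CKI and -4.74 ± 0.12 with N_Omt.

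Of the chromosomal passenger complex, which corrects wrong attachments and later guides the furrow, all 4 members fell with CKI and with every mixture at 48 h, and with CKI, N_2 and N_3 at 24 h. Between 14.8% (CKI at 24 h) and 39.9% (N_Omt) of all genes were called lower in those comparisons. BIRC5, or survivin, was at 144, 157 and 141 CPM untreated, 67.0, 61.2 and 56.4 with CKI and 4.66, 6.94 and 6.06 with N_3 at 48 h. It changed by -1.26 ± 0.08 and -4.66 ± 0.11. At 24 h with OO it changed by -0.82 ± 0.26 (adjusted p = 0.0375), and that call was lost without any single library of either group, where the log2 fold change was between -0.87 and -0.74. It was kept without the 3 unnumbered libraries (-0.87, adjusted p = 0.0195). AURKB, the kinase of the complex, changed by -0.84 ± 0.12 with CKI and -2.86 ± 0.13 with N_3 at 48 h. INCENP, its scaffold, changed less, by -0.53 ± 0.10 and -1.54 ± 0.10, and CDCA8, or borealin, by -1.43 ± 0.07 and -3.22 ± 0.08.

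The checkpoint role included CDC20, which the checkpoint restrains and which fell less with N_2 than with CKI. It was at 366, 347 and 330.2 CPM in untreated cells at 24 h and at 225, 237 and 244 at 48 h in batch 1. With CKI it was at 91.7, 100.02 and 112 and 71.6, 67.0 and 68.6 CPM. With N_2 it was at 178, 159 and 218 and 142, 118 and 120.3 CPM, between the untreated and the CKI libraries at both times. The log2 fold changes with N_2 were -0.87 ± 0.13 and -0.87 ± 0.08, and with CKI -1.78 ± 0.14 and -1.77 ± 0.08. Of the checkpoint kinases and adaptors themselves, BUB1 changed by -0.45 ± 0.07, TTK by -0.63 ± 0.10, MAD2L1 by -0.53 ± 0.10 and BUB1B by -1.06 ± 0.10 with CKI at 48 h in batch 1. With N_Omt they changed by -3.37 ± 0.06, -3.82 ± 0.12, -3.04 ± 0.08 and -4.47 ± 0.11.

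At the kinetochore, SPC24 was the member that CKI did not lower at 48 h in either batch. It is a subunit of the NDC80 complex, with SPC25, NUF2 and NDC80 itself. At 48 h in batch 1 it was at 30.8, 30.6 and 29.1 CPM untreated and 33.1, 35.6 and 33.5 with CKI, where all 3 CKI libraries were above the untreated ones. Its log2 fold change was 0.18 ± 0.08, with a 95% interval of 0.02 to 0.34 and an adjusted p of 0.0603. In batch 2 it was at 24.4, 27.5 and 22.1 CPM untreated and 23.6, 22.9 and 23.0 with CKI, which overlapped, with a change of -0.09 ± 0.09 (interval -0.27 to 0.09, adjusted p = 0.385). At 24 h SPC24 was not called with CKI either, but all 3 CKI libraries were below all 3 untreated ones. That held for all 50 members, against 26.0% of all genes. The difference between 48 and 24 h with CKI was 1.05 for SPC24, the highest of the members and not called. The other 3 subunits fell with CKI in both batches, SPC25 by 0.81 and 1.12, NUF2 by 1.21 and 1.51 and NDC80 by 1.48 and 1.66 on the log2 scale. With N_Omt SPC24 did fall, to 0.723, 0.749 and 0.704 CPM, a change of -5.07 ± 0.16. The largest single change of any member was that of SPC25 with N_3 at 48 h. It went from 31.3, 32.1 and 31.5 CPM untreated to 0.403, 0.587 and 0.436, a change of -6.06 ± 0.14.

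CENPF, a large protein of the outer kinetochore, led this role by summed counts. It was at 190.0, 197 and 212 CPM untreated and 118, 74.4 and 70.6 with CKI at 24 h, with CKI replicate 1 nearest to the untreated libraries. The change was -1.19 ± 0.34 (adjusted p = 0.0156), and the call was lost without CKI replicate 2 (adjusted p = 0.0625) or 3 (adjusted p = 0.0607), where the changes were -1.08 and -1.05. CENPF without the 3 unnumbered libraries changed by -1.47 with CKI (adjusted p = 0.000222), and by -0.66 with N_2 at 24 h (adjusted p = 0.00711), where it had not passed the test. At 48 h in batch 2 CENPF was at 244, 248 and 228 CPM untreated, 90.2, 93.6 and 88.3 with CKI and 23.1, 25.2 and 25.8 with N_Omt. CENPE, the kinesin that carries chromosomes to the spindle equator, changed by -3.29 ± 0.41 with N_2 at 24 h, the largest fall in that group, and CENPA, the histone that marks the centromere, by -1.83 ± 0.23.

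The kinesins held the member with the largest typical fall. KIF20A, a midzone motor needed for cytokinesis, was at 128, 130.0 and 131 CPM in untreated cells and 31.8, 25.6 and 26.3 with CKI at 24 h. It was at 41.8, 59.5 and 38.9 with OO, 50.1, 52.5 and 52.8 with MOO and 6.36, 25.1 and 7.90 with N_3. The treated libraries were all below the untreated ones, and N_3 replicate 2 was just below the lowest CKI library and far above its 2 other replicates. At 48 h in batch 1, KIF20A went from 102, 93.8 and 97.5 CPM untreated to 1.70, 1.49 and 1.70 with N_3, a change of -5.89 ± 0.12. It ranked first among the members by size of fall with CKI at each time and batch, with changes of -2.22 ± 0.36, -2.49 ± 0.09 and -2.66 ± 0.10.

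KIF2C, a microtubule-depolymerizing kinesin at the centromere, was the most abundant kinesin by summed counts. It was at 154, 156 and 147 CPM untreated, 52.4, 53.0 and 55.6 with CKI and 3.61, 3.37 and 1.71 with N_Omt in batch 2, changes of -1.51 ± 0.08 and -5.69 ± 0.11. KIF18B, which trims the ends of astral microtubules, changed by -1.27 ± 0.06 and -5.74 ± 0.10. KIF11, the motor that separates the spindle poles, changed by -1.09 ± 0.06 and -3.80 ± 0.08. KIF14, a motor of the midbody, moved least of the kinesins with N_Omt (-2.67 ± 0.07), and with OO at 24 h its change was -0.02 ± 0.29 (interval -0.63 to 0.59).

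TPX2, which activates AURKA on the spindle, led the spindle proteins. TPX2 was at 334, 315 and 319 CPM untreated, 147, 148 and 161 with CKI and 70.3, 95.7 and 78.6 with N_3 at 48 h in batch 1. The groups did not overlap, and the changes were -1.09 ± 0.08 and -1.99 ± 0.08. ASPM and HMMR, proteins of the spindle poles, changed by -1.05 ± 0.08 and -1.56 ± 0.14 with CKI at 48 h in batch 1, and by -5.11 ± 0.11 and -4.84 ± 0.22 with N_Omt. CKAP2, a microtubule-stabilizing protein, changed by -0.60 ± 0.07 and -2.05 ± 0.06, the smallest N_Omt change among the 6 spindle proteins.

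Of the furrow genes, ANLN, or anillin, was at 347, 304 and 296 CPM untreated, 167, 149 and 159.7 with CKI, 116, 117 and 122 with OO and 43.7, 37.9 and 39.0 with N_3 at 48 h in batch 1. The 4 groups did not overlap, and OO lay below CKI, with changes of -0.99 ± 0.08, -1.42 ± 0.08 and -2.97 ± 0.09. RACGAP1, of the centralspindlin complex, fell in all 15 comparisons, by 0.63 with OO at 24 h and 2.65 with N_Omt on the log2 scale. ECT2, the exchange factor that activates RhoA at the furrow, moved least of all members with N_Omt, by -1.22 ± 0.05. IQGAP3, a scaffold protein linked to proliferation, was at 134, 117 and 123 CPM untreated, 109, 118 and 120.3 with MOO and 50.9, 63.8 and 65.2 with CKI at 48 h in batch 1. The MOO and untreated libraries overlapped, with a change of -0.11 ± 0.09 and an interval of -0.31 to 0.08.

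The last role held TOP2A, the topoisomerase that disentangles sister chromatids, and MKI67, the surface protein of mitotic chromosomes used as a marker of cycling cells. TOP2A was at 359, 395 and 433 CPM untreated, 214, 177 and 161 with CKI, 223, 423 and 324 with OO and 34.6, 154 and 37.6 with N_3 at 24 h. OO overlapped the untreated libraries, and N_3 replicate 2 was far above its 2 other replicates. The change with CKI was -1.11 ± 0.41 (adjusted p = 0.052), which passed the test in the fit with replicate numbers as a block (adjusted p = 0.0388), in the fit with no filter on low counts (0.0373) and in the fit of all 54 libraries (0.000513). Without the 3 unnumbered libraries it was -1.24 (adjusted p = 0.000443). TOP2A did not pass with CKI at 24 h under the other scalings, by DESeq2 or with any single library of either group left out. At 48 h in batch 2 TOP2A was at 474, 506 and 402 CPM untreated, 231, 237 and 238 with CKI and 14.2, 12.8 and 11.9 with N_Omt, changes of -0.97 ± 0.07 and -5.15 ± 0.09. MKI67 was at 326, 334 and 292 CPM untreated, 121, 113 and 124 with CKI and 5.23, 6.28 and 5.84 with N_Omt. Its change of -5.78 ± 0.08 was the largest of any member in batch 2.

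**Figure D3:**
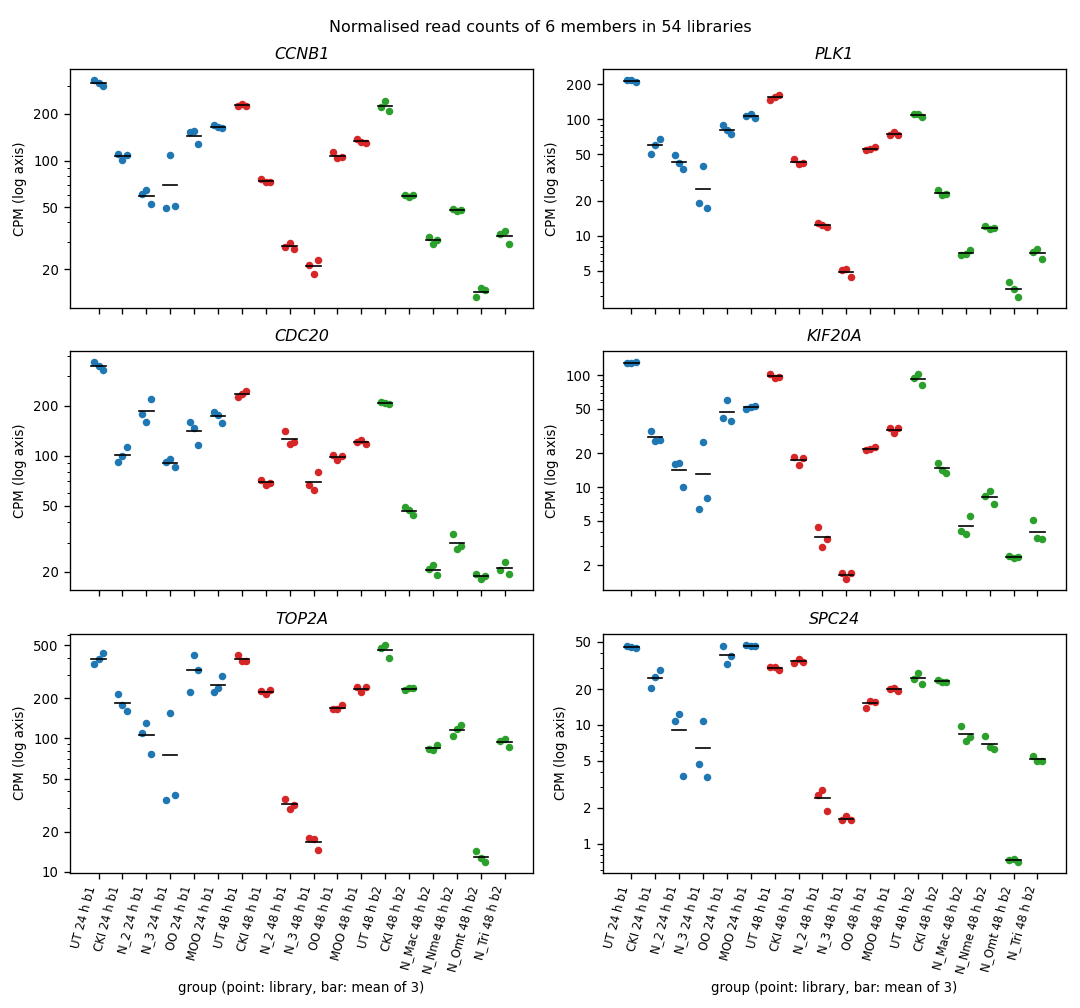
CPM (log axis) of CCNB1, PLK1, CDC20, KIF20A, TOP2A and SPC24 in each of the 54 libraries (points), with a bar at the mean of 3 replicates. SPC24 with CKI at 48 h sits level with or above untreated cells, while it lies at 0.704 to 0.749 CPM with N_Omt.

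Whether removing a compound changed the response was tested between each mixture and CKI of the same time and batch. In batch 2, N_Omt was lower than CKI for all 50 members (76.3% of all genes called, 39.2% lower). The median log2 difference was -2.63. SPC24 differed most, by -4.98 ± 0.16, then SPC25 by -4.60 ± 0.17 and KIF18B by -4.47 ± 0.11. CDC25B (-0.67 ± 0.05) and ECT2 (-0.73 ± 0.05) differed least. N_Tri was also lower for all 50 (71.4% called, 36.9% lower). Its median was -1.09, and the differences ran from -2.22 ± 0.11 for SPC24 to -0.39 ± 0.06 for CKAP2. N_Mac was lower for all 50 (69.4% called, 34.3% lower). Its median was -1.08, and the differences ran from -1.70 ± 0.08 for PLK1 to -0.35 ± 0.10 for AURKB. N_Nme was lower for 47 (71.5% called, 35.7% lower), with a median of -0.67. The members not called were HMMR (-0.30 ± 0.18, interval -0.67 to 0.07), KIF14 (-0.13 ± 0.07, interval -0.27 to 0.01) and IQGAP3 (-0.07 ± 0.06, interval -0.21 to 0.06). The members' RNA was thus lower in each of the 4 mixtures than in whole CKI. The 4 mixtures were not tested against each other.

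In batch 1 at 24 h, N_2 was lower than CKI for 26 members and higher for 4, together 60%. Of all genes 58.7% were called, 29.5% lower and 29.2% higher. At 48 h N_2 was lower for 47 and higher for 2 (73.1% of all genes called, 37.1% lower). The medians were -0.65 and -1.54. The 4 higher at 24 h were CDC20, CDC25B, UBE2C and TPX2, of which CDC20 and CDC25B were higher again at 48 h. CDC20 differed by 0.91 ± 0.13 at 24 h (adjusted p = 2.26e-05) and by 0.90 ± 0.08 at 48 h (adjusted p = 1.57e-09). CENPE differed most at 24 h, by -2.26 ± 0.40, and SPC25 most at 48 h, by -4.04 ± 0.12. TTK was not called at 48 h (0.17 ± 0.10, interval -0.03 to 0.38). Leaving out the 3 unnumbered libraries, 32 members were lower and 6 higher at 24 h, and under scaling by library totals alone 38 were lower and 1 higher.

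N_3 was lower than CKI for 42 members at 24 h (35.7% of all genes called, 18.1% lower) and 49 at 48 h (67.2% called, 34.1% lower). The medians were -1.01 and -1.97. CDC20 was the exception at 48 h, with a difference of 0.00 ± 0.08 and an interval of -0.17 to 0.18, and SPC25 differed most, by -5.25 ± 0.15. Once the 3 unnumbered libraries were left out, 46 members were lower and 1 higher at 24 h, with a median of -1.46. N_3 and N_2 differ by macrozamin alone. N_3 was lower than N_2 for 44 members at 48 h (51.0% called, 25.1% lower), with a median of -0.64. KIF18B (-1.80 ± 0.09), PLK1 (-1.37 ± 0.09) and DLGAP5 (-1.30 ± 0.11) differed most. HMMR, AURKB, KIF18A, PRC1, CKAP2 (0.01 ± 0.07) and PTTG1 (0.11 ± 0.12) were not called. At 24 h the median was -0.34. Of all genes 47.6% were called there, and 23.8% were called lower. N_3 was lower for 16 members, or 32%, and higher for none, so a smaller share of the members than of all genes was called. That count was 42 without the 3 unnumbered libraries, 39 without N_3 replicate 2 alone, 9 without N_3 replicate 3 and 10 without N_2 replicate 1. Under scaling by library totals alone it was 7, with 6 lower and 1 higher, and the median was 0.0058, since that scaling moved the median of all genes by 0.32.

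OO and MOO also differ by macrozamin alone. At 48 h MOO was higher than OO for 24 members and lower for none, where 1.98% of all genes were called and 1.46% were called higher. The median difference was 0.31, and it was above 0 for all 50. KIF20A was at 21.5, 21.7 and 22.8 CPM with OO and 34.0, 30.3 and 33.5 with MOO, which did not overlap, a difference of 0.57 ± 0.09 (adjusted p = 0.000675). TOP2A was at 167, 165 and 178 and 242, 223 and 244 CPM, a difference of 0.47 ± 0.08 (adjusted p = 0.00104), and ANLN differed by 0.43 ± 0.08 (adjusted p = 0.00356). For 47 members all 3 MOO libraries were above all 3 OO libraries, against 14.6% of all genes. The count of 24 was 8 without OO replicate 1, 9 without OO replicate 2 or MOO replicate 3, 11 without MOO replicate 1, 14 without OO replicate 3, and 0 in the fit of all 54 libraries. At 24 h no member was called by edgeR's test (0.00% of all genes called) or by DESeq2, and 1 had an unadjusted p under 0.05. There the median was -0.01, and the differences ran from -0.47 ± 0.52 for MKI67 (interval -1.57 to 0.62) to 0.39 ± 0.22 for PLK1 (interval -0.08 to 0.85).

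**Figure D4:**
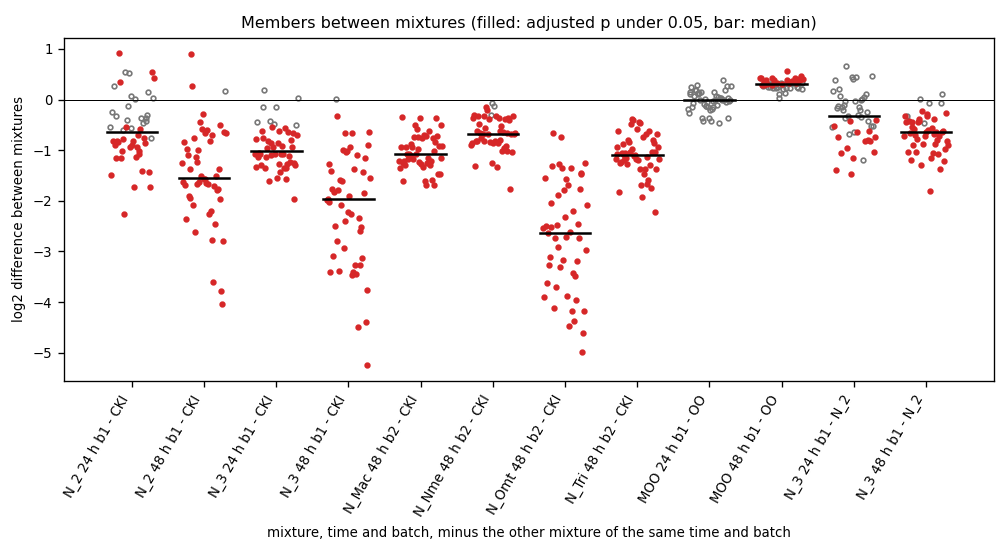
Log2 difference of each of the 50 members between mixtures of the same time and batch, in 12 pairs; filled red points passed the test, open points did not, and the bar is the median. All points of N_Omt against CKI lie below 0, with a median of -2.63, and all points of MOO against OO at 48 h lie above 0, with a median of 0.31.

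Time was tested as the difference between the 48 h and the 24 h log2 fold change in batch 1. In untreated cells themselves, CDC20 was the 1 member that passed the test between the times, with -0.57 ± 0.11 at 48 h (1.57% of all genes called). The median member was -0.21, and for 33 members all 3 untreated libraries of 48 h were below those of 24 h, against 17.8% of all genes. The count was 18 without the 3 unnumbered libraries, 6 in the fit of all 54 libraries, 4 by DESeq2, and 0 without UT replicate 1 or 2 of either time. With CKI no member was called by edgeR's test (0.391% of all genes called) or by DESeq2, with a median difference of 0.14, and 3 had an unadjusted p under 0.05. The differences ran from -0.41 for CENPE to 1.05 for SPC24, with standard errors of up to 0.55, so 2-fold differences could go uncalled. Without the 3 unnumbered libraries 3 members were called, all higher at 48 h.

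The effect of N_2 deepened between 24 and 48 h for 21 members (34.2% of all genes called, 18.7% lower). The median difference was -0.53. Under scaling by library totals alone it was -0.18, where 14 deepened and 3 became shallower. MKI67 moved most. It was at 97.5, 138 and 47.5 CPM at 24 h and 11.4, 8.88 and 9.77 at 48 h with N_2, against 251, 264 and 286 and 298, 262 and 249.9 untreated, a difference of -3.24 ± 0.58 (adjusted p = 7.03e-05). BIRC5 was at 100.4, 103 and 44.7 CPM and then 13.1, 11.2 and 11.1, a difference of -2.43 ± 0.29 (adjusted p = 3.02e-07). In MKI67, BIRC5 and FOXM1, N_2 replicate 3 was the lowest of its group at 24 h. FOXM1 differed by -2.02 ± 0.28. For CDC20 the difference was 0.02 ± 0.16, with an interval of -0.30 to 0.35. Without the 3 unnumbered libraries, 32 members deepened and 1 became shallower.

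The effect of N_3 deepened for 24 members (7.35% of all genes called, 5.00% lower), with a median of -0.92. SPC25 moved most, by -3.46 ± 0.45 (adjusted p = 1.34e-05), then MKI67 by -2.93 ± 0.59 and KIF20A by -2.58 ± 0.42. N_3 replicate 2 at 24 h stood above its group for these members, and without the 3 unnumbered libraries 23 members deepened and 1 became shallower, with a median of -0.38. Of the abundant members of their roles, TOP2A differed by -2.16 ± 0.44, KIF2C by -2.10 ± 0.33 and BIRC5 by -2.08 ± 0.30, which were -1.11, -1.34 and -1.71 without those libraries and still passed the test. AURKA was among the 24, by -0.64 ± 0.18. Its call was lost without N_3 replicate 2 at 24 h, where the difference was -0.29 (adjusted p = 0.0937), and without any one of 7 other libraries, where the difference was between -0.66 and -0.57. With OO the median over the members was -0.40. ANLN (-1.08 ± 0.29, adjusted p = 0.0158) and CDK1 (-0.98 ± 0.30, adjusted p = 0.0416) deepened, where 8.06% of all genes were called, 4.83% lower. That count was 1 without any single library of the comparison except OO replicate 1 at 24 h, without which it was 4, and it was 13 without the 3 unnumbered libraries. With MOO no member was called by edgeR's test (2.59% of all genes called) or by DESeq2, 0 had an unadjusted p under 0.05, and the median was -0.11. For 3 members it deepened without the 3 unnumbered libraries.

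**Figure D5:**
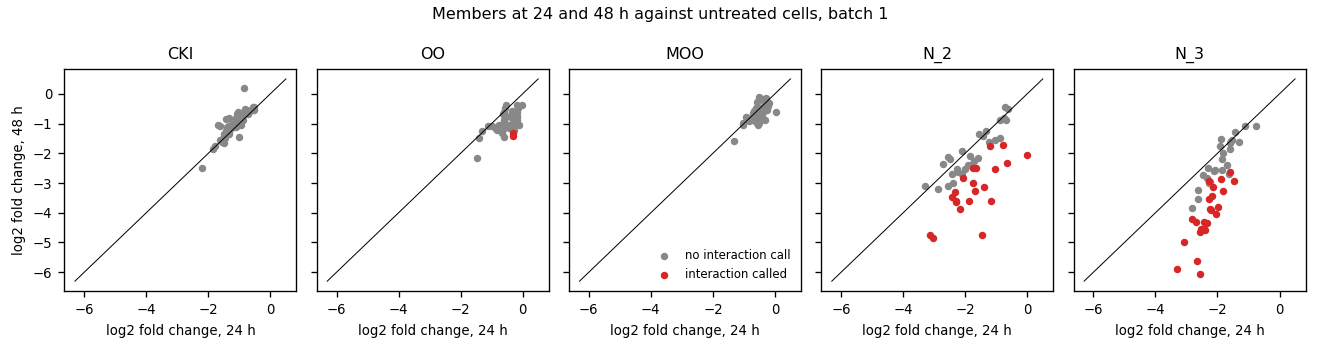
Log2 fold change against untreated cells at 24 h (x axis) and at 48 h (y axis) of the 50 members for CKI, OO, MOO, N_2 and N_3 in batch 1; red points passed the test of the difference between the times, and the diagonal marks equal values. CKI points lie around the diagonal with none called, and many N_2 and N_3 points lie below it.

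The same CKI dose was given in both batches at 48 h, so the response could be compared between them. The fall with CKI was deeper in batch 2 for 11 members and shallower for none (8.90% of all genes called, 5.00% lower). The median difference was -0.22. IQGAP3 was at 134, 117 and 123 CPM untreated and 50.9, 63.8 and 65.2 with CKI in batch 1, and at 139.8, 129 and 132 and 36.3, 36.0 and 34.6 in batch 2. The difference between the batches was -0.84 ± 0.11 (adjusted p = 2.66e-06), the largest of the members. AURKB (-0.65 ± 0.16), UBE2C (-0.41 ± 0.13), KIF23 (-0.40 ± 0.10) and CDC20 (-0.37 ± 0.11) were also among the 11. The count was 6 without replicate 1 or 3 of CKI in batch 1, replicate 1 of UT in batch 2 or replicate 3 of CKI in batch 2. It was 7 without replicate 2 of UT or of CKI in batch 2, and 0 in the fit of all 54 libraries. Untreated cells of the batches differed too, with 12 members higher and 7 lower in batch 2. These are 38% of the members, a smaller share than the 54.3% of all genes called. BUB1 (0.48 ± 0.06) and CKAP2 (0.47 ± 0.06) were the highest, and PLK1 (-0.52 ± 0.06) the lowest. The total was 11 without UT replicate 3 of batch 1 and 4 in the fit of all 54 libraries, and under scaling by library totals alone 15 were higher and 4 lower.

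Genes that share the members' pathway were read from lists outside the 50, and their values are log2 fold changes against untreated cells. Over all genes tested, 39.9% were called lower and 38.4% higher with N_Omt. With CKI 14.8% were called lower and 15.3% higher at 24 h, 27.0% and 27.0% at 48 h in batch 1, and 34.2% and 32.3% in batch 2. All 8 condensin genes, which compact chromosomes, fell with N_2 and N_3 at both times, with OO and MOO at 48 h and with all 4 mixtures of batch 2. In those comparisons between 21.8% (N_3 at 24 h) and 39.9% (N_Omt) of all genes were called lower. With CKI 6 of the 8 fell at each time and batch, with medians of -0.80, -0.45 and -0.63, and NCAPD3 was not called in any of the 3. For the cohesin ring, which holds sister chromatids together, the shares were near those of all genes. Of 12 cohesin and separase genes with N_Omt, 6 fell and 4 rose, with a median of -0.09. SGO1 (-4.37), CDCA5 (-4.16) and ESPL1, or separase (-3.60), fell, while WAPL (0.56), which opens the ring, and NIPBL (0.39), which loads it, rose. Of 15 genes of the anaphase-promoting complex and its inhibitors, 10 fell and 4 rose with N_Omt, with a median of -0.44. CDC26 rose (1.19), and FBXO5, or EMI1 (-2.24), and UBE2S (-2.22) fell.

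Of 28 other kinetochore and inner centromere genes, 26 fell with N_Omt and 2 rose, with a median of -1.68. The 2 were MAD1L1 (1.16), which anchors the checkpoint, and MIS12 (0.45), and HJURP, the loader of CENPA, fell most (-4.76). With CKI 15 fell and 1 rose at 24 h, 14 fell and 2 rose at 48 h in batch 1, and 20 fell and 1 rose in batch 2. Of 23 other spindle, midzone and entry genes, all 23 fell with N_3 at 48 h and with the 4 mixtures of batch 2, and 17, 21 and 22 fell with CKI. Of all genes, between 35.3% and 39.9% were called lower with N_3 at 48 h and those 4 mixtures, and 14.8%, 27.0% and 34.2% with CKI. PKMYT1, the kinase that inhibits CDK1, changed by -5.76 with N_Omt and -0.76 with CKI at 48 h in batch 1.

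Among 19 regulators of the G2 and mitosis programme, CDKN1A, which encodes the CDK inhibitor p21, rose in all 15 comparisons, by 0.79 with MOO to 2.82 with N_3 at 48 h. E2F7, a repressor of cell cycle genes, rose in all 15 as well, between 0.20 and 1.38. MYBL2, or B-MYB, changed by -0.84 with CKI and -3.95 with N_Omt in batch 2. LIN9, LIN54 and LIN52 of MuvB changed by -1.06, -0.19 and 0.13 with N_Omt, of which LIN52 was not called. Of all 19, 14 fell and 3 rose with N_Omt.

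DNA replication genes, read from a list of 30, gave another order of the mixtures. At 48 h in batch 1 their median was -0.35 with CKI and -0.92 with MOO, against -1.05 and -0.73 for the 50 members. With OO it was -1.18, against -1.04, and with N_Omt in batch 2 it was -2.44, against -4.04. No test of the difference between the lists was made. Splitting the members with a promoter by the CHR letters in the first window listed for each gene gave medians of -1.17 for the 31 with and -0.99 for the 12 without at 24 h of CKI. With N_Omt they were -4.22 and -4.62. Over all windows, 33 of the 43 members had the letters. Since only those spellings were read, the 12 may include genes with the element, and the split draws no line between genes with and without it.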

How the data were processed

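Poly(A) RNA of 54 MDA-MB-231 libraries, 3 per group, was sequenced in paired-end reads. The deposited values are raw counts per gene for 27978 genes, of which 3798 had no count. The submitters' processing notes name FastQC 0.11.4, Trim Galore 0.3.7, STAR 2.5.3a, Subread 1.5.2, edgeR 3.22.3 and the build hg19, with no role given for each. Reads that fall on near-identical gene copies could have been split or lost in that counting. All 54 columns were matched to samples by name. For 3 libraries the name carried no replicate number, and these were also left out as an alternative.

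Counts were tested with edgeR 4.0.16 in R 4.3.3 (limma 3.58.1), using filterByExpr, TMM scaling and the quasi-likelihood test with Benjamini-Hochberg adjustment over all genes, at an adjusted p under 0.05. Each comparison with UT or between mixtures was fitted on the 18 libraries of its time and batch. Differences between times or batches were tested as interactions over 36 libraries. Groups came from the sample labels, and p-values measure the spread between those replicates only. Levels are CPM after TMM scaling over all libraries, and ratios per library used a pseudocount of 1 CPM. Library totals lay between 17673537 and 26138924 counts. The scripts were tested on simulated counts. Alternatives were other scalings, no filter beyond 1 count, a replicate block, DESeq2 1.42.0, 1 fit of all libraries, and leaving out each library in turn.

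The 50 members and the other gene lists were chosen with earlier results of these data known. Genes described with their values in each library were the member of each role with the highest mean CPM, the members furthest up or down in a comparison, and members chosen after their values were seen to show a role or an exception. In the latter group were CCNB1, CDK1, PLK1, SPC24, FOXM1 and IQGAP3. Promoters came from RefSeq for GRCh38.p14, whose coordinates are not those of hg19.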

Additional observations from a re-analysis of the deposited data

Results flagged for a closer look

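The effect of a treatment differed between times or batches, by the interaction test, for 21 members with N_2 (34.2% of all genes called), 24 with N_3 (7.35%) and 2 with OO (8.06%) between 24 and 48 h, and for 11 members with CKI between the batches (8.90%). The 2 members with OO are a smaller share of the 50 than the share of all genes. Among the most abundant member of each role, the log2 fold change with N_2 was lower at 48 h by -2.43 for BIRC5, -1.71 for TOP2A, -1.63 for CENPF, -1.04 for KIF2C, -0.90 for TPX2 and -0.70 for AURKA. With N_3 the difference was -2.16 for TOP2A, -2.10 for KIF2C, -2.08 for BIRC5 and -0.64 for AURKA. With OO it was -1.08 for ANLN, and with CKI the difference between batch 2 and batch 1 was -0.37 for CDC20. When the 3 libraries of 24 h with no replicate number in the column name, N_3 replicate 2 among them, were left out, the N_3 differences were -1.11 for TOP2A, -1.34 for KIF2C, -1.71 for BIRC5 and -0.30 for AURKA. The gap test for an outlying sample needs at least 4 samples and was not run on these groups of 3, for which the values with each library left out are given instead.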

How the results depend on the processing

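Of 225 values of a count of called members under another setting, 20 moved by over 1.5 times, and of 246 values that left out 1 library, 40 did. All 20 concerned the 24 h effects of OO and MOO, MOO against OO, N_3 against N_2 at 24 h, the interactions or the untreated cells. The cause was not tested, and the share of all genes called beside these counts is not given. None of the 3 unnumbered libraries is from MOO or the untreated cells, whose counts also changed when those libraries were left out. Without the 3 unnumbered libraries the count was 31 for OO and 36 for MOO at 24 h, 42 for N_3 against N_2 at 24 h, 18 for untreated cells over time, and 3 for CKI, 33 for N_2, 13 for OO and 3 for MOO over time. In the fit of all 54 libraries it was 29 for OO and 34 for MOO at 24 h, 0 for MOO against OO at 48 h, 7 for OO over time, 0 for CKI between batches, 6 for untreated cells over time and 4 between batches. DESeq2 gave 14 for MOO at 24 h and 4 for untreated cells over time. Scaling by library totals alone gave 7 for N_3 against N_2 at 24 h and 1 for OO over time. That scaling moved the median of all genes by -0.31 for N_2 at 24 h, 0.11 for OO at 48 h, -0.36 for N_2 against CKI at 24 h, -0.13 and -0.12 for N_3 against CKI and N_2 at 48 h, and 0.35 for N_2 over time.

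With the replicate number as a block, the count was 0 for untreated cells over time, 12 for MOO at 24 h and 3 for OO over time. Samples of the same number deviated together in all 3 pairs in 1 of 15 pairs of groups at 24 h. At 48 h they did so in 0 in either batch. The numbers thus gave no clear sign of pairing, which groups of 3 cannot exclude. Leaving out 1 library gave 7 to 11 members for OO and 5 to 6 for MOO at 24 h, 8 to 18 for MOO against OO at 48 h, 9 to 39 for N_3 against N_2 at 24 h, 1 to 4 for OO over time, 6 to 9 for CKI between batches, 0 to 1 for untreated cells over time and 11 to 19 between batches.

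For the most abundant member of each role, 26 of 2520 values changed sign, none of them for a member that had passed the test. Without the 3 unnumbered libraries the difference over time was -0.041 for CDC20 with CKI, 0.27 for TPX2 with N_3 and 0.011 for AURKA with OO. For TPX2 with MOO it was 0.079 under library totals alone and 0.00058 with the replicate block. Leaving out 1 library, the log2 fold change of CENPF with OO at 24 h ran from -0.30 to 0.0090. The difference over time ran from -0.050 to 0.086 for CDC20, -0.037 to 0.38 for CENPF and -0.011 to 0.11 for KIF2C with CKI, from -0.094 to 0.14 for CDC20 with N_2 and from -0.30 to 0.28 for TPX2 with N_3. With OO it ran from -0.13 to 0.023 for AURKA and -0.068 to 0.13 for CDC20, and with MOO from -0.025 to 0.11 for CDC20, -0.046 to 0.019 for TPX2 and -0.16 to 0.013 for TOP2A. The biological coefficient of variation was 0.175 at 24 h and 0.0763 and 0.0480 in the batches at 48 h, so the limit on small changes was widest at 24 h.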
